A study of Mus musculus with 8 samples.

Results

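Cholesterol synthesis and its regulator SREBP2 were followed through 28 named genes, from the supply of acetyl-CoA to cholesterol, with the side branches to other isoprenoids and the proteins that hold or release SREBP2. A gene was read from a probe set, the group of array probes summarised to 1 value, to which the array's annotation gives that symbol alone. Where a gene had several such probe sets, the brightest over the 8 arrays was taken. Of the 28 genes, 25 had a probe set of their own, and all 25 passed the filter on dim signals that left 13845 genes for testing. Idi1, the isomerase that makes dimethylallyl diphosphate, shares its probe set with Gm13502 and is not reported. The symbols Acat2 and Pdss1 were not matched in the annotation table used, and their transcript levels were not analysed here. Scap had 2 probe sets with mean log2 signals of 8.10 and 3.21, the second near the level of the filter, and the brighter was used.

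The cells were primary hepatocytes of male C57Bl6J mice, cultured in medium that held 100 nM dexamethasone in every group. They received DMSO (the solvent control), 100 nM glucagon, 2 µM GW4064, or glucagon and GW4064 together, for 6 h. Glucagon is secreted in fasting and acts on the liver through cyclic AMP. GW4064 is a synthetic compound that activates FXR, the nuclear receptor for bile acids. Each treatment was measured on 2 arrays, 1 from each of 2 experiments, and each experiment divided the pooled cells of 3 mice over the 4 treatments. The design asks how glucagon and GW4064, alone and combined, change transcript levels, and n = 2 in every group limits the precision of all values.

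Hepatocytes make cholesterol from acetyl-CoA by way of mevalonate, farnesyl diphosphate, squalene and lanosterol. SREBP2 is a transcription factor made as a membrane protein of the endoplasmic reticulum. When membrane sterol is low, Scap escorts it to the Golgi, where proteases release the part that enters the nucleus and activates the genes of the pathway. When sterol is plentiful, the Insig proteins hold Scap and SREBP2 back. Array probes bind with different strength, so levels of the pathway genes are compared between arrays for a gene and not between genes.

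With glucagon alone, Pck1, the gluconeogenic enzyme PEPCK, rose by 5.26 on the log2 scale (standard error, SE, 0.39; adjusted p = 0.00541), and G6pc, the catalytic subunit of glucose-6-phosphatase, rose by 4.11 (SE 0.21; adjusted p = 0.00140). For GW4064 alone, the FXR targets Abcb11 and Nr0b2 differed from DMSO by 0.75 (SE 0.29) and 0.42 (SE 0.17), neither past the test (adjusted p = 0.999 for both). The GW4064 array of experiment 2 stood apart: the median log2 signal of 1405 olfactory and vomeronasal receptor probe sets was 3.25 there and 2.95 to 2.98 on the other 7 arrays. Its correlations with the other arrays over all tested genes were 0.975 to 0.985, beside 0.976 to 0.997 among the other 7 arrays. Albumin, Alb, was at 12.97 to 13.11, close to the brightest signal of each array. Of 7 tested hepatocyte markers, 1 rose in the 4 arrays with glucagon against the 4 without, beside 0.816% of all genes. It was Tat (0.83, SE 0.14, limma adjusted p = 0.0465). With the experiment as a block in the model 2 rose, beside 2.67% of all genes, the other being Cps1 (0.46, adjusted p = 0.0240 with the block). Hnf4a was at 7.49 to 8.19 in experiment 1 and 8.54 to 8.90 in experiment 2. Of 26 markers of Kupffer, endothelial, stellate, bile duct and blood cells, 16 were tested. In the same comparison 0 of the 16 passed the limma test, beside 1.32% of all genes in either direction. At that share 0 of 16 says little about these cells. Of the markers, 7 lay above the filter level on no array. The linear signal of the 25 of these markers with a probe set was summed, a value that also depends on probe strength. The sum was 1688 to 2121 on arrays without glucagon and 1735 to 2302 with it. Without the macrophage marker Cd68, which gave most of the sum, it was 513.1 to 703.6 and 469.5 to 510.1. Among these, the bile duct marker Sox9 differed by -1.32 (SE 0.32; adjusted p = 0.133), and its part in the results was not tested. With the block and without the GW4064 array of experiment 2, 1 of 3 tested bile duct markers fell, beside 6.64% of all genes. In bulk RNA, fewer cells of a type and less RNA per cell cannot be told apart.

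Glucagon raised transcripts of 4 enzymes that lie between HMG-CoA formation and lanosterol demethylation, while other steps in that stretch did not pass. Averaged over the backgrounds without and with GW4064, that is 4 arrays with glucagon against 4 without, 4 of the 25 genes rose past the threshold, an adjusted p below 0.05 in limma over all genes: Pmvk, Cyp51, Hmgcs1 and Lss. Across all genes tested, 1.32% passed this test in either direction and 0.816% rose. With the experiment as a block in the model, which uses the pairing of arrays by cell pool, 10 of the 25 rose, against 5.76% of all genes in either direction and 2.67% that rose. The additional 6 were Insig1, Insig2, Sqle, Nsdhl, Hsd17b7 and Ebp. With the block and without the GW4064 array of experiment 2, 13 of the 25 rose, against 10.5% of all genes in either direction and 3.86% that rose, the further ones being Fdft1, Stard4 and Mvd. The passing genes were all rises in each of these fits, and 24 of the 25 differences were above 0. Their median was 0.46, beside -0.00 over all genes. The calls of Hmgcs1 and Cyp51 without the block were lost when the DMSO array of experiment 1, either glucagon array or either array of the combined treatment was left out (adjusted p = 0.0829 to 0.160 and 0.0517 to 0.0924), and that of Lss when any DMSO, glucagon or combined-treatment array was (0.0875 to 0.161).

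**Figure D1:**
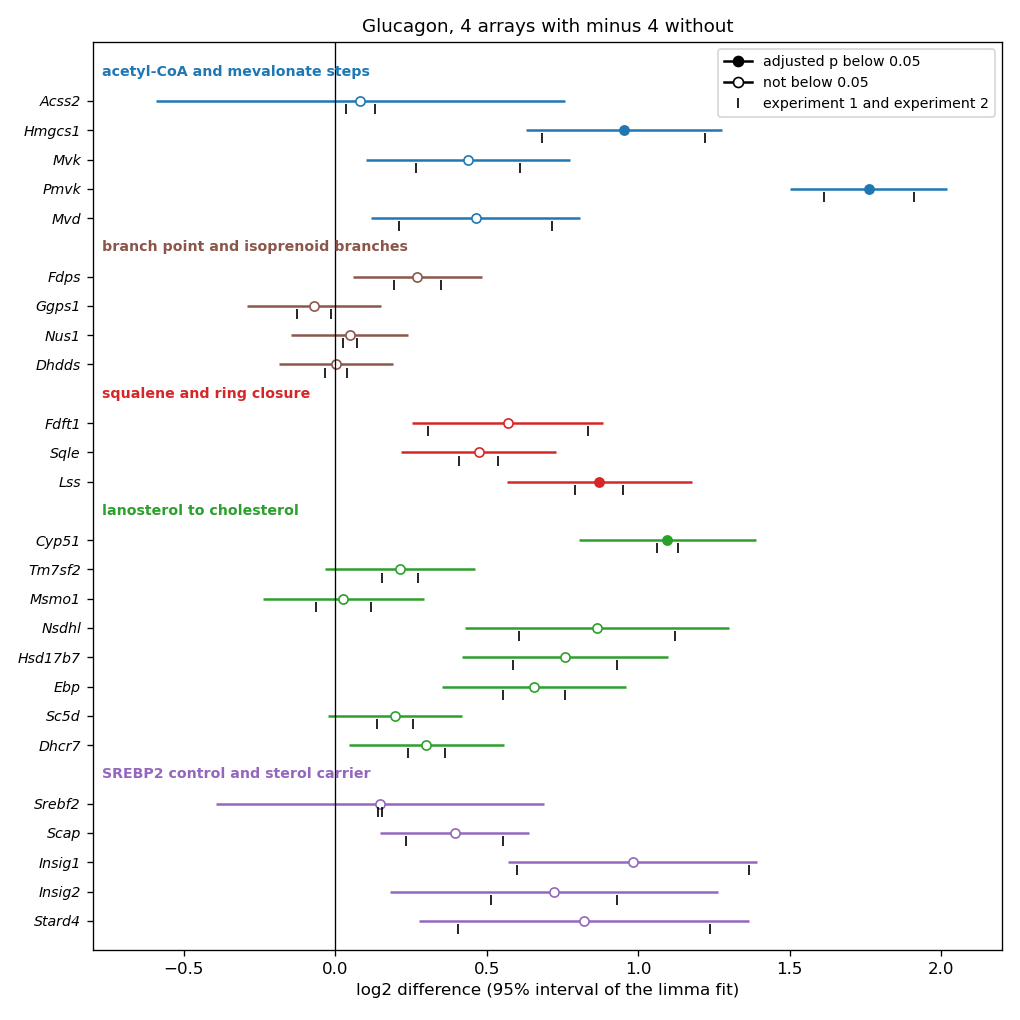
Difference between the 4 arrays with glucagon and the 4 without for each of 25 genes (x axis, log2 difference; bars are 95% intervals of the limma fit), ordered by role in the pathway; filled points have an adjusted p below 0.05 and short ticks give the difference within each experiment. The filled points are Hmgcs1, Pmvk, Lss and Cyp51, and 17 of the 25 intervals lie above 0.

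For most of the genes the signals with and without glucagon did not overlap, although some gaps were small. For Sc5d, the highest array without glucagon was at 9.405 and the lowest with it at 9.412. In 17 of 25 genes all 4 glucagon arrays lay above all 4 arrays without glucagon, a pattern shown by 6.07% of the genes tested. The reverse order was found in 0 of 25, against 6.88% of all genes. Within the 4 matched pairs of an experiment and background, glucagon was higher in every pair for 19 of 25, against 15.4% of all genes. The 6 genes without that pattern were Mvk, Msmo1, Srebf2, Ggps1, Nus1 and Dhdds.

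Among the enzymes that make mevalonate and turn it into the isoprene unit, Pmvk had the largest change of the 25. Pmvk phosphorylates phosphomevalonate. Its log2 signal in experiments 1 and 2 was 5.75 and 6.08 with DMSO, 7.93 and 7.70 with glucagon, 5.86 and 5.96 with GW4064, and 7.49 and 7.57 with both agents. The lowest glucagon array was thus well above the highest array without it. Averaged over both backgrounds the difference was 1.76 (SE 0.11; adjusted p = 0.00130), or 3.39-fold, and Pmvk was also the gene of the pathway that passed with glucagon alone (1.90, SE 0.16; adjusted p = 0.00934). Leaving out either glucagon array, either array of the combined treatment or the DMSO array of experiment 1 ended the call for glucagon alone (adjusted p = 0.0529 to 0.150), as did fitting only the groups compared (0.0772), whereas the averaged change kept an adjusted p of 0.0201 or lower in all 15 alternatives.

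Hmgcs1, the cytosolic synthase that condenses acetyl-CoA and acetoacetyl-CoA to HMG-CoA, lay at 8.61 and 8.95 with DMSO, 9.96 and 9.58 with glucagon, 8.71 and 9.04 with GW4064, and 9.81 and 9.79 with both. The glucagon arrays did not overlap the others, and the averaged rise was 0.95 (SE 0.14; adjusted p = 0.0289), or 1.93-fold. Mvk, mevalonate kinase, and Mvd, the decarboxylase that ends this stretch, differed by 0.44 (SE 0.14; adjusted p = 0.216) and 0.46 (SE 0.15; adjusted p = 0.208). Mvd separated the arrays, at 3.96 to 4.24 without and 4.35 to 4.86 with glucagon, while Mvk overlapped, at 4.26 to 4.64 and 4.62 to 5.11. Acss2, which makes acetyl-CoA from acetate, differed by 0.08 (SE 0.29), and its arrays were ordered by experiment: 4.69 to 5.02 in experiment 1 and 5.37 to 5.65 in experiment 2.

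At the branch point and in the branches that lead away from sterols, 0 of 4 tested genes passed in either model. Across all genes tested, 1.32% passed without the block and 5.76% with it. At those shares 0 of 4 says little about these genes. Fdps makes farnesyl diphosphate, the last intermediate common to sterols, dolichol and prenyl groups, and was at 8.10 to 8.33 without glucagon and 8.42 to 8.60 with it. Its arrays separated, with a difference of 0.27 (SE 0.09; adjusted p = 0.223). Beyond the branch point, Ggps1, which makes geranylgeranyl diphosphate, differed by -0.07 (SE 0.09), and Nus1 and Dhdds, the subunits of the dolichol-forming prenyltransferase, by 0.05 (SE 0.08) and 0.00 (SE 0.08). The 95% intervals of these 3 reached from -0.29 at the lowest to 0.24 at the highest, so a change of the size seen for Hmgcs1 lies outside them.

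On the sterol side of the branch point all 3 enzymes were higher with glucagon. Fdft1, squalene synthase, lay at 8.38 to 8.70 without glucagon and 8.87 to 9.30 with it, a difference of 0.57 (SE 0.13; adjusted p = 0.120). Sqle, the epoxidase that oxidises squalene, was at 8.40 and 8.61 with DMSO, 9.08 and 9.11 with glucagon, 8.51 and 8.79 with GW4064, and 8.91 and 9.11 with both. Its difference of 0.47 (SE 0.11; adjusted p = 0.111) passed with the block (adjusted p = 0.0253). Lss, which closes the rings to lanosterol, read 7.13 and 7.00 with DMSO, 8.16 and 7.86 with glucagon, 7.22 and 6.77 with GW4064, and 7.78 and 7.81 with both. Lss rose by 0.87 (SE 0.13; adjusted p = 0.0309), or 1.83-fold, and its lowest glucagon array, at 7.78, lay above the highest of the others, at 7.22.

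Of the 8 enzymes from lanosterol to cholesterol, 1 rose, and 4 did so with the block, beside 0.816% and 2.67% of all genes. Cyp51, the demethylase that takes up lanosterol, was at 8.01 and 8.23 with DMSO, 9.19 and 8.91 with glucagon, 7.97 and 7.60 with GW4064, and 9.06 and 9.04 with both. It rose by 1.10 (SE 0.12; adjusted p = 0.0145), or 2.14-fold, with no overlap between arrays. Nsdhl, a sterol dehydrogenase of the demethylation complex, was at 7.93 and 8.61 with DMSO, 9.10 and 9.00 with glucagon, 7.83 and 8.33 with GW4064, and 8.90 and 9.16 with both.

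The Nsdhl difference of 0.86 (SE 0.18; adjusted p = 0.0919) passed with the block (adjusted p = 0.0193), and its arrays without glucagon differed by experiment. Hsd17b7, the ketosteroid reductase of the same complex, lay at 7.73 and 7.65 with DMSO, 8.79 and 8.15 with glucagon, 7.82 and 7.91 with GW4064, and 8.62 and 8.58 with both, a difference of 0.76 (SE 0.14; adjusted p = 0.0642, and 0.0271 with the block). Ebp, the isomerase that shifts the ring double bond, was at 6.93 and 7.41, 7.82 and 7.88, 7.00 and 7.19, and 7.63 and 7.82 in the same order of groups, a difference of 0.66 (SE 0.13; adjusted p = 0.0707, and 0.0140 with the block). Both genes were higher on every glucagon array than on any array without the hormone.

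The other 4 enzymes of this stretch passed in neither model. Msmo1, the methyl oxidase of the demethylation complex, differed by 0.03 (SE 0.11), with arrays at 9.46 to 9.82 without and 9.54 to 9.76 with glucagon. Its partners in that complex, Nsdhl and Hsd17b7, were both higher with the hormone. Tm7sf2, a sterol reductase, differed by 0.21 (SE 0.11), Sc5d, the desaturase of the penultimate steps, by 0.20 (SE 0.09), and Dhcr7, the reductase that acts at the end of the route, by 0.30 (SE 0.11), with adjusted p-values of 0.413, 0.394 and 0.263.

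**Figure D2:**
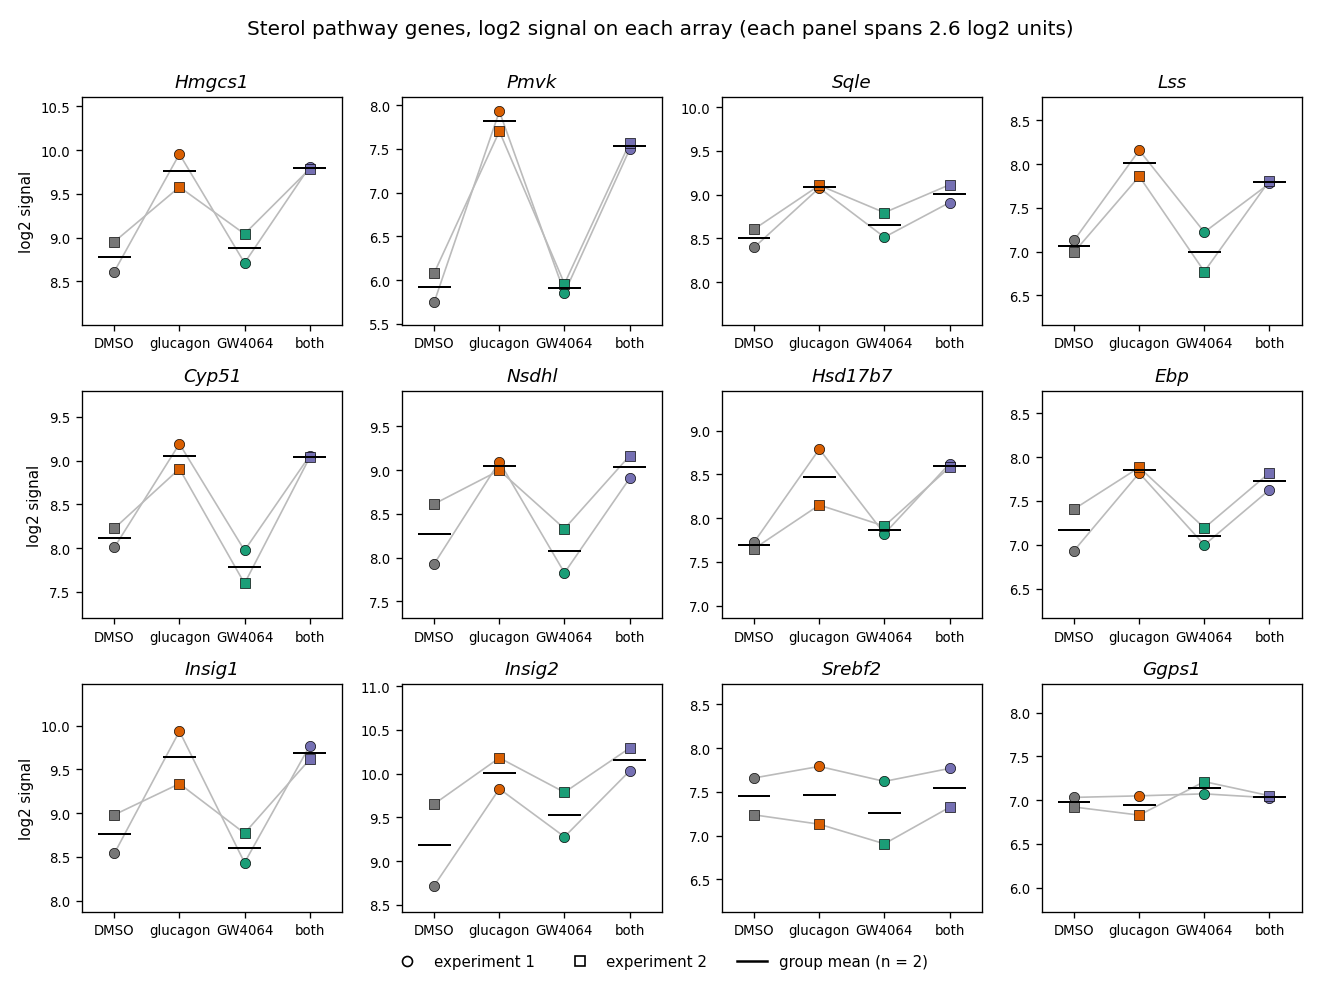
Log2 signal (y axis) of 12 genes of the pathway on the 8 arrays, by treatment (x axis); circles are experiment 1, squares experiment 2, bars the mean of 2 arrays and grey lines join arrays of an experiment. Pmvk is at most 6.08 without glucagon and at least 7.49 with it, while Srebf2 is split by experiment and Ggps1 stays between 6.83 and 7.21; the 12 genes were chosen after their values were seen.

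Among the regulators, the genes for the proteins that retain SREBP2 were higher with glucagon, while the transcript of SREBP2 itself was not separated. Insig1 read 8.54 and 8.98 with DMSO, 9.94 and 9.34 with glucagon, 8.43 and 8.77 with GW4064, and 9.77 and 9.61 with both. Its difference of 0.98 (SE 0.17; adjusted p = 0.0537) came after those of Pmvk and Cyp51 in size and passed with the block (adjusted p = 0.0310). Insig2 was at 8.72 and 9.65, 9.83 and 10.18, 9.28 and 9.79, and 10.03 and 10.29 in the same order of groups.

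The Insig2 arrays of experiment 2 lay above those of experiment 1 in all 4 groups, and its difference of 0.72 (SE 0.23; adjusted p = 0.210) passed with the block (adjusted p = 0.0266). Srebf2, which encodes SREBP2, was at 6.91 to 7.66 without and 7.13 to 7.79 with glucagon, a difference of 0.15 (SE 0.23; 95% interval -0.39 to 0.69). Scap differed by 0.39 (SE 0.10; adjusted p = 0.150), at 7.83 to 7.96 and 8.08 to 8.54. Stard4, a carrier that moves cholesterol between membranes, was at 4.77 and 5.77 with DMSO, 5.96 and 5.89 with glucagon, 4.61 and 5.18 with GW4064, and 5.89 and 5.87 with both. Its difference was 0.82 (SE 0.23; adjusted p = 0.169), with the DMSO array of experiment 2 almost level with the glucagon arrays.

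The upstream regions of the 4 genes that rose are shown because these genes moved together. They are the 250 bases before the RefSeq transcription start in GRCm38.p6, read 5′ to 3′ on the strand of the gene, and Pmvk is shown for the more upstream of its listed starts. Capitals mark matches on either strand to TCACNCCAC (a sterol response element to which SREBP binds), CCAAT (the NF-Y motif) or TGACG (the core of the cyclic AMP response element). The window at the other listed Pmvk start held none of these patterns.
Pmvk, chr3:89454291-89454540, + strand: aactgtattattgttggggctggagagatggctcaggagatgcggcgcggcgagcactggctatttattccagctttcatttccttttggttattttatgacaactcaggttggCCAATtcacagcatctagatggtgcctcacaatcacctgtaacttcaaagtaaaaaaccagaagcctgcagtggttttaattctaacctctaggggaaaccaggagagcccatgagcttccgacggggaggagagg
Hmgcs1, chr13:119690101-119690350, + strand: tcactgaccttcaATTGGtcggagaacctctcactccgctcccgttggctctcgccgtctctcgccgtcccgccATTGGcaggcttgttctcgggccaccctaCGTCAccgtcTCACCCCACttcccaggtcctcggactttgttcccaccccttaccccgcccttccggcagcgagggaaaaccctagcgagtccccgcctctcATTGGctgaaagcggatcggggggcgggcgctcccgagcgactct
Cyp51, chr5:4104698-4104947, - strand: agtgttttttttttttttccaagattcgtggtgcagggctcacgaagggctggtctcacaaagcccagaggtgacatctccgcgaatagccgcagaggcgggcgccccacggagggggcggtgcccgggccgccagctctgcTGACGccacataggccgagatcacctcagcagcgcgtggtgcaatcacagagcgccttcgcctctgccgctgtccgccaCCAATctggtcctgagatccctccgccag
Lss, chr10:76531355-76531604, + strand: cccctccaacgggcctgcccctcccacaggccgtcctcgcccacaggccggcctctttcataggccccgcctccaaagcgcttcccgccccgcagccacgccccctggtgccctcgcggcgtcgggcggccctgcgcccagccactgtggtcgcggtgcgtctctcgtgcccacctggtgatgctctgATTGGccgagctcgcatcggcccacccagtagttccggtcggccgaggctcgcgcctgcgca
A match to TCACNCCAC lies 137 bases before the start of Hmgcs1. Among the pathway's genes it was found in no other window, which is 1 of 30 windows of 24 genes, beside 1.05% of all 32851 windows. A sterol element with letters outside the patterns searched would not be marked, so an unmarked window is not shown to lack one. Sqle, Fdft1, Fdps and Stard4 had no window and were not searched. The 24 genes include Idi1, Acat2 and Pdss1, whose transcripts are not reported. CCAAT was present in 21 of the 30 windows (33.8% of all windows) and TGACG in 10 (17.8%). Of 9 patterns searched, these 3 were chosen for display after their matches were seen. The others were a 10-letter form of the sterol element (0 of 30; 0.0731%), TCACNCC (6; 13.4%), TCACCCCA (2; 1.34%), TGACGTCA (0; 1.55%), CACGTG (6; 6.02%) and GGGCGG (22; 32.7%). The forms of the sterol element overlap each other, and TGACGTCA overlaps TGACG.

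The glucagon difference was then read in each background. Without GW4064 the median over the 25 was 0.47, and with GW4064 present, as both agents minus GW4064, it was 0.48. In each of the 2 backgrounds 1 of 25 genes, Pmvk, passed the test, against 0.116% and 0.166% of all genes. With the block 2 passed in each, Lss and Pmvk without GW4064 and Cyp51 and Pmvk with it, against 0.925% and 1.06%. Pmvk differed by 1.62 (SE 0.16; adjusted p = 0.0204) with GW4064 present, and Cyp51 by 1.26 (SE 0.18; adjusted p = 0.0730, and 0.0270 with the block). Without the GW4064 array of experiment 2 and with the block, 6 passed in the absence of GW4064 (3.16% of all genes) and 2 in its presence (1.37%). The call of Pmvk with GW4064 present was lost without either glucagon array, either combined-treatment array or the GW4064 array of experiment 2 (adjusted p = 0.0526 to 0.324), and with only the groups compared (0.142). The backgrounds share no array, and across the 25 genes their differences correlated at r = 0.918, a description of genes that share the same 2 cell pools.

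**Figure D3:**
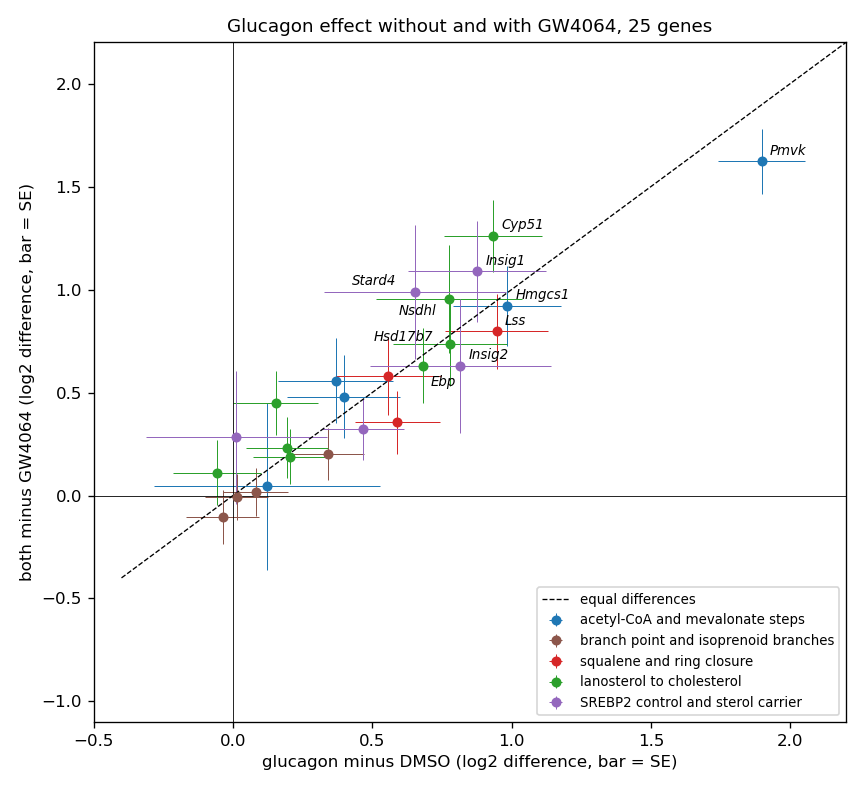
Glucagon minus DMSO (x axis) against both agents minus GW4064 (y axis) for 25 genes, log2 differences with SE bars, coloured by role; the dashed line marks equal differences. Pmvk is at 1.90 and 1.62, and the points lie along the line, 14 of 25 with the larger difference in the absence of GW4064.

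No difference between the backgrounds was detected for any gene of the pathway. The interaction passed for 0 of 25 genes in limma (0% of all genes), and 0 of 25 had an unadjusted p below 0.05 beside 149 of all genes. With the block it passed for 0 as well, with 332 of all genes below an unadjusted 0.05. Pmvk had the most negative interaction, -0.27 (SE 0.22; 95% interval -0.80 to 0.25), Stard4 the most positive, 0.33 (SE 0.46), and Dhcr7 the smallest unadjusted p (0.30, SE 0.22; adjusted p = 1). The intervals of the 25 genes reached from -1.43 to 1.42, and 19 of 25 lay within 1 log2 unit of 0.

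The glucagon differences were larger in experiment 1 for most of the genes. Across the 25 genes the averaged glucagon difference had a median of 0.61 in experiment 1 and 0.36 in experiment 2, and 19 of 25 were larger in experiment 1 (r = 0.825 across genes). Outside the pathway, the differences of Pck1 (5.49 and 4.81) and G6pc (4.34 and 3.81) were also larger in experiment 1. How many of all genes share this order was not counted. For Insig1 the glucagon minus DMSO difference was 1.40 in experiment 1 and 0.36 in experiment 2, and for Stard4 it was 1.19 and 0.12. Between the DMSO arrays, 16 of 25 genes were higher in experiment 2, by a median of 0.15, whereas between the glucagon arrays 6 of 25 were, with a median of -0.22. Stard4 (1.01), Insig2 (0.93) and Nsdhl (0.68) had the largest gaps between the DMSO arrays.

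The combined treatment was also compared with DMSO, whose arrays the glucagon comparison shares. Pmvk passed (1.61, SE 0.16; adjusted p = 0.0224), as 1 of 25 against 0.123% of all genes (1 and 0.737% with the block, 6 and 2.47% with the block and without the GW4064 array of experiment 2), and 24 of 25 differences were above 0 with a median of 0.37. This call was lost without either array of DMSO, of glucagon or of the combined treatment (adjusted p = 0.0586 to 0.332), and with only the groups compared (0.0716).

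For GW4064, no gene of the pathway and no other gene tested passed with all 8 arrays, so the pathway does not stand out in these counts. Against DMSO, 0 of 25 genes passed in limma, as did 0% of all genes, and 0 of 25 had an unadjusted p below 0.05 beside 373 of all genes. With the block the counts were 0 of 25 and 720 of all genes below an unadjusted 0.05. The median difference was -0.03, as over all genes, and the values ran from -0.38 for Stard4 (SE 0.33) to 0.34 for Insig2 (SE 0.32). Cyp51 had the smallest unadjusted p of the 25 (-0.33, SE 0.18; adjusted p = 0.999), with 8.01 and 8.23 on the DMSO arrays and 7.97 and 7.60 on the GW4064 arrays, of which the lower is the array that stood apart. Pmvk differed by -0.01 (SE 0.16).

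Added to glucagon, GW4064 again moved 0 of 25 genes past the threshold (0% of all genes), with 0 of 25 and 90 of all genes at an unadjusted p below 0.05, and 0 of 25 and 194 with the block. Differences ran from -0.29 for Pmvk (SE 0.16; adjusted p = 1.000) to 0.16 for Insig2 (SE 0.32). All 25 intervals lay within 1 log2 unit of 0 in this comparison, and 22 of 25 did so for GW4064 against DMSO. In 0 of 25 genes did the 4 arrays with GW4064 lie wholly above or below the 4 without, beside 0.571% and 0.607% of all genes.

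**Figure D4:**
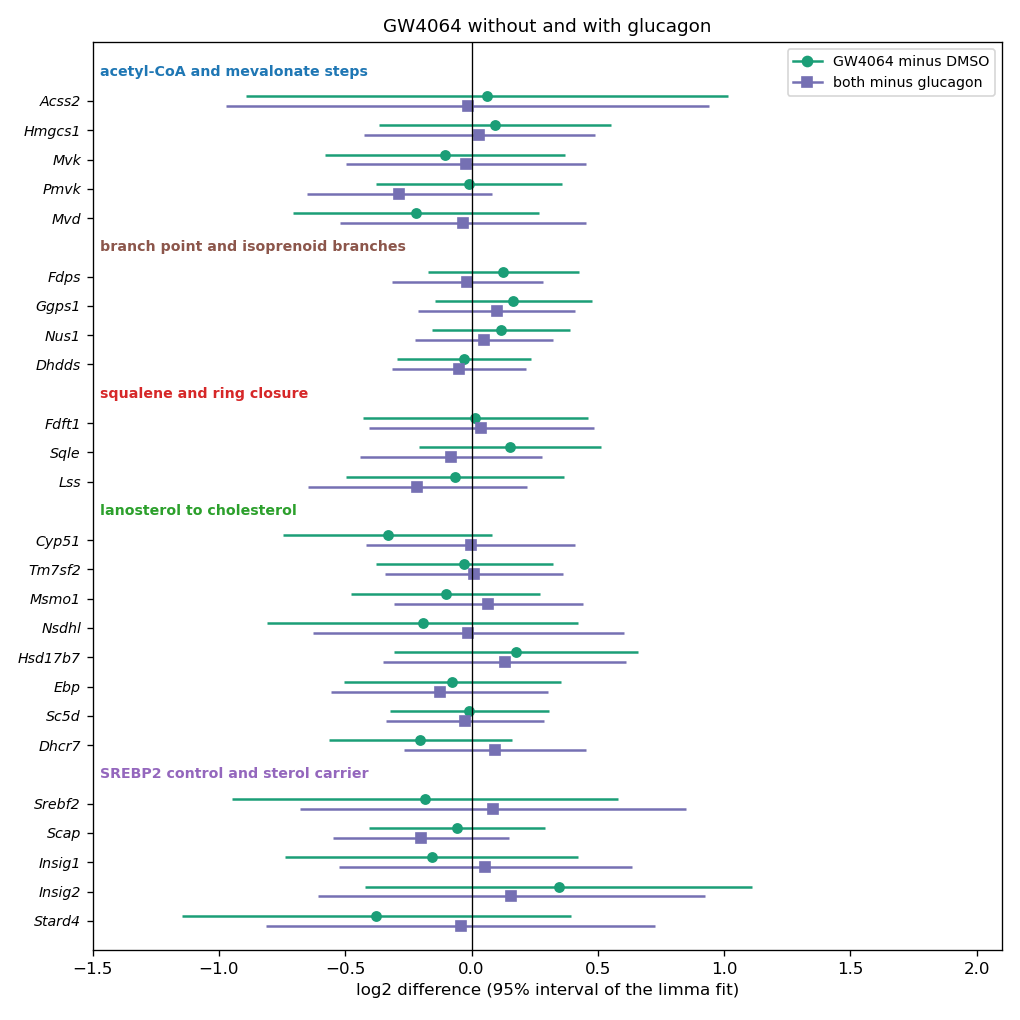
Differences of GW4064 minus DMSO (green circles) and of both agents minus glucagon (violet squares) for 25 genes, log2 scale on the x axis with 95% intervals of the limma fit. All intervals cross 0, and they reach from -1.15 to 1.11 for GW4064 minus DMSO.

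Genes of neighbouring pathways were read in the same averaged comparison, beside all genes tested, of which 0.816% rose and 0.506% fell, or 2.67% and 3.08% with the block. With the block and without the GW4064 array of experiment 2, 3.86% rose and 6.64% fell. Of 7 tested genes that process SREBP or degrade sterol-regulated proteins, 0 passed, and with the block 1 fell: Erlin1, an endoplasmic reticulum protein that binds cholesterol (-1.09, SE 0.29; adjusted p = 0.149, and 0.0267 with the block). In the fatty acid arm, driven by the related SREBP1c, 1 of 11 rose, and 3 of 11 did so with the block, with or without that array. The riser was Acacb (1.30, SE 0.19; adjusted p = 0.0299), an acetyl-CoA carboxylase at mitochondria that makes malonyl-CoA. Elovl6, a fatty acid elongase, passed with the block (0.51, SE 0.20; adjusted p = 0.323, and 0.0349 with the block), and the list had a median of 0.17.

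Among 12 tested genes of sterol export, storage and the oxysterol receptor LXR, Lipa, the lysosomal lipase that frees cholesterol from its esters, rose (0.52, SE 0.09; adjusted p = 0.0434). With the block 3 of 12 rose, with or without the GW4064 array of experiment 2, among them Abcg5 (0.94, SE 0.22; adjusted p = 0.125, and 0.00921 with the block), a subunit of the transporter that exports sterol into bile. Of 18 genes of prenylation, dolichol and coenzyme Q, 0 passed and with the block 1 fell, Trit1, which prenylates transfer RNA (-0.73, SE 0.14; adjusted p = 0.0707, and 0.0192 with the block). With the block and without the GW4064 array of experiment 2, 3 of the 18 fell. The medians of these lists were 0.07 and 0.03, beside 0.46 for the cholesterol genes. Of the mitochondrial counterparts, 1 of 5 was tested, the thiolase Acat1 (0.20, SE 0.18; adjusted p = 0.656).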

How the data were processed

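RNA of 8 hepatocyte samples was hybridised to Affymetrix MoGene 2.0 ST arrays from 300 ng, with 2 technical replicates pooled per sample and cells pooled from 3 mice, per the labels' protocols. The deposited log2 signals were made by the authors in Genespring, per the labels. How it summarised and normalized the probes is not given in the sources used here. The log2 scale was read from the range of the values. Of 41345 probe sets, 23521 had 1 symbol, 1814 several and 16010 none. Probe sets above the 40th percentile of their array on at least 2 arrays were kept (27338, of which 14639 had 1 symbol), and the brightest per gene gave 13845 genes.

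Group means over all 8 arrays were compared in limma 3.58.1 (R 4.3.3; 4 residual and 3.06 prior degrees of freedom) in 7 contrasts, two-sided, with Benjamini-Hochberg adjustment over all genes and a threshold of 0.05. Per the labels each experiment used its own pooled cells, so arrays of an experiment are paired; their deviations from the group means correlated at r = 0.350 to 0.620 over 6 pairs of groups. The blocked model is given where it changes a call. The steps were tested on simulated data. Members, role groups and lists were chosen with earlier results of these data known; all 28 members are named, and of each other list up to 3 genes with the smallest p. Alternatives were the block, the block without the GW4064 array of experiment 2, quantile normalization, no filter or the 60th percentile, the mean of a gene's probe sets, the compared groups alone, trend and robust moderation, and leaving out each array. Promoter windows came from RefSeq by symbol, for 24 of 28 genes. No measured column was left unused.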

Additional observations from a re-analysis of the deposited data

How the results depend on the processing

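With 2 arrays per group the counts of calls depend on the model. With the replicate block, which uses the pairing of arrays, the pathway's calls went from 1 to 2 for glucagon against DMSO (all genes 16 to 128), from 1 to 2 with GW4064 present (23 to 147) and from 4 to 10 for the averaged effect (183 to 797); for the combined treatment all genes went from 17 to 102. With the block and without the GW4064 array of experiment 2 these were 6 and 438, 2 and 190, 13 and 1454, and 6 and 342. With only the groups compared in the fit they were 0 and 9 for glucagon, 0 and 3 with GW4064 present, and 0 and 9 for the combined treatment. Quantile normalization gave 2 calls of the pathway with GW4064 present. Leaving out 1 array at a time gave 0 to 1 calls of the pathway and 2 to 27 of all genes for glucagon, 0 to 3 and 2 to 759 with GW4064 present, 1 to 5 and 25 to 702 averaged, 0 to 1 and 2 to 24 for the combined treatment, and 0 to 406 of all genes for GW4064 against DMSO; the highest of all genes came without the GW4064 array of experiment 1, tied for glucagon and for the combined treatment with that of experiment 2. In the averaged effect the count was 1 without the DMSO array of experiment 1, the glucagon array of experiment 1 or either array of the combined treatment, 2 without the glucagon array of experiment 2, and 5 without the GW4064 array of experiment 2. Pmvk kept its averaged call in all 15 alternatives, while Hmgcs1 and Cyp51 each lost it in 5 of the 8 leave-one-out fits and Lss in 6, with fewer residual degrees of freedom; the cause was not tested otherwise. Of 2750 values of the 25 genes under all alternatives, 159 changed sign, none of them past the threshold. Among values given in the text, leaving out 1 array moved the averaged difference of Msmo1 over -0.048 to 0.10 (-0.015 with the block and without the GW4064 array of experiment 2), Srebf2 over -0.031 to 0.33, Acss2 over -0.15 to 0.32 and Dhdds over -0.018 to 0.024. For GW4064 against DMSO it moved Pmvk over -0.18 to 0.16 (0.10 with quantile normalization), Insig2 over -0.12 to 0.81 and Stard4 over -0.88 to 0.13, for GW4064 on top of glucagon Insig2 over -0.020 to 0.33, and for the interaction Stard4 over -0.17 to 0.84.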
